A study of Mus musculus with 27 samples.

Results

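The genes described here were 42 interferon-stimulated genes (ISGs), chosen as a list of symbols and not by any value in these libraries, out of 53379 genes in the count table. All 42 passed the filter on low counts and were among the 18758 genes tested. Hepatic stellate cells (HSCs), the vitamin A storing pericytes of the liver sinusoid, were sorted from mouse livers by the ultraviolet fluorescence of their retinoid stores and taken for RNA without culture. All mice were male Balb/c. Carbon tetrachloride (CCl4), which the liver turns into a toxic radical, was injected intraperitoneally in mineral oil at 0.5 µL per g body weight. The acute groups, aged 10 to 12 weeks, received 1 injection and were taken after 24 h (3 libraries), 72 h (4) or 7 d (4). The chronic groups, aged 8 to 10 weeks at the start, were injected semi-weekly for 4 weeks and taken 24 h (4), 72 h (4) or 14 d (4) after the regimen. The 4 healthy controls, aged 10 to 12 weeks, were not injected, so oil alone had no group of its own and the chronic mice differed from the controls also in age. The study states that each repeat was an individual experiment.

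Library totals ran from 6.31 M to 13.05 M counts. In 8 libraries the total was under 9 M (at most 7.58 M), and in the other 19 it was at least 10.8 M. Replicates 1 and 2 of both chronic 24 h and chronic 72 h were of this lower depth, as was every chronic 14 d library, so that at chronic 14 d depth and group cannot be told apart. A list of 10 HSC markers summed to 29039 to 48469 counts per M counts (CPM, scaled by the TMM factors that make libraries comparable) in healthy cells. The sums were below every healthy library at acute 72 h (15818 to 20241 CPM), acute 7 d (18285 to 21056 CPM), chronic 24 h (15410.0 to 18218 CPM) and chronic 72 h (21423 to 24251 CPM), and ran to at least 21900.0 CPM at acute 24 h and 23490.0 CPM at chronic 14 d. The part of this shift in the ISG values was not tested. A list of 10 macrophage markers, among them Cd68, Csf1r and C1qa, summed to 121 to 452 CPM in healthy cells and to 4398 to 11428 CPM at acute 7 d. In these bulk samples, fewer cells of a type and less RNA per cell cannot be told apart.

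Interferons are cytokines released by infected or alarmed cells. Type I and type III interferons act through a complex that holds STAT2 and IRF9 and binds the interferon-stimulated response element (ISRE) in promoters. Interferon gamma, made by T and NK cells, acts at the gamma-activated site and raises IRF1. The products of ISGs block viral entry, RNA translation and assembly, sense foreign nucleic acid, load peptides for antigen presentation, or damp the response itself.

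The promoter windows of RefSeq (GRCm38.p6, 250 bases before to 50 after the start site) held 33 of the 42 genes in 37 windows, and Dhx58, Iigp1, Mx2, Oas2, Parp14, Parp9, Rtp4, Usp18 and Zbp1 were not matched. The ISRE, searched on both strands as GAAA, any 2 bases and GAAA again, was found in 20 of the 37 windows (54.1%) and in 3.44% of all 32851 promoter windows. The gamma-activated site, searched on both strands as TTCNNNGAA, was found in 9 windows (24.3%) and in 8.3% of all windows, and 2 ISRE matches overlapped it. The sites of 9 genes are shown because they lie at the start of ISGs that rose, fell or did neither in these cells, that of Eif2ak2 just past the start site and the others before it; capitals mark the ISRE matches, read 5′ to 3′ on the strand of the gene, where a match on the other strand reads TTTC, any 2 bases and TTTC.
Isg15, chr4:156200871-156200900, strand minus: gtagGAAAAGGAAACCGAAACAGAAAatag
Bst2, chr8:71537580-71537609, strand minus: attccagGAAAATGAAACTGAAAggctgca
Oas3, chr5:120777715-120777744, strand minus: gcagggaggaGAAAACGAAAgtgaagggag
Eif2ak2, chr17:78882535-78882564, strand minus: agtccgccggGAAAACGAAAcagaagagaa
Ifit3, chr19:34583363-34583392, strand plus: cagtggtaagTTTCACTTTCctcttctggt
Ifit3b, chr19:34607759-34607788, strand plus: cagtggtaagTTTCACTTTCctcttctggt
Gbp5, chr3:142496759-142496788, strand plus: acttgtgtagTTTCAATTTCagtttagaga
Oas1a, chr5:120907523-120907552, strand minus: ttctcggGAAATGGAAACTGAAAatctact
Igtp, chr11:58199512-58199541, strand plus: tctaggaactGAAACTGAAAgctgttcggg
Isg15 held 3 overlapping matches and Bst2, like Oas1a, 2. Ifit3 and Ifit3b each held 2 separate matches, of which the first is shown. The stretches shown for Ifit3 and Ifit3b are letter for letter the same, and reads of these near-identical genes can be split by the counting, so their values are uncertain. An ISRE match stood in the windows of 5 of the 7 matched genes that rose against healthy cells in at least 1 comparison, of 3 of the 6 that fell and of 11 of the 20 that did neither. The match is a description of letters and not of a bound site.

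With all libraries, calls among ISGs were few and went in both directions. A gene was called higher or lower at an adjusted p below 0.05 and a change of over 2-fold (edgeR's quasi-likelihood test, Benjamini-Hochberg adjustment over the 18758 genes tested). At acute 24 h, 5 ISGs rose and 4 fell against healthy cells, where 9.41% of all genes tested rose and 12.5% fell. At acute 72 h, 2 rose and 1 fell (background 8.23% and 4.33%). At acute 7 d, 1 rose and 0 fell (background 9.23% and 5.64%), with 8 lower at an unadjusted p under 0.05 in edgeR and 0 called lower by DESeq2, and 1 or 2 lower when healthy replicate 1 or 2 or acute 7 d replicate 3 or 4 was left out.

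At chronic 24 h, 5 rose and 3 fell (background 11.2% and 8.11%). At chronic 72 h, 2 rose (4 without healthy replicate 4) and 0 fell (background 7.88% and 4.2%), with 2 lower at an unadjusted p under 0.05 in edgeR and 0 called lower by DESeq2. At chronic 14 d, 0 rose and 0 fell by edgeR and by DESeq2 (background 4.55% and 1.17%), with 1 higher and 6 lower at an unadjusted p under 0.05 in edgeR. In 4 of the 6 comparisons the share of ISGs called lay below the share of all genes in both directions, and at acute 24 h and chronic 24 h it was close to it in the direction of the rise. The median log2 fold change of the 42 ISGs against healthy cells was -0.24 at acute 24 h, -0.09 at acute 72 h, -0.33 at acute 7 d, -0.04 at chronic 24 h, 0.01 at chronic 72 h and -0.06 at chronic 14 d. Over all genes tested, the median ran from -0.12 at acute 24 h to 0.01 at acute 7 d. The ISG median at chronic 24 h depended on the libraries and was -0.50 without replicate 1, -0.77 with the higher-depth libraries alone and -0.47 with depth class as a term, where all genes stayed between -0.03 and -0.04. With that term the ISG median at chronic 14 d was -0.67 (all genes 0.03). As every chronic 14 d library was of lower depth, this value carries over the depth difference inside chronic 24 h and 72 h.

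**Figure D1:**
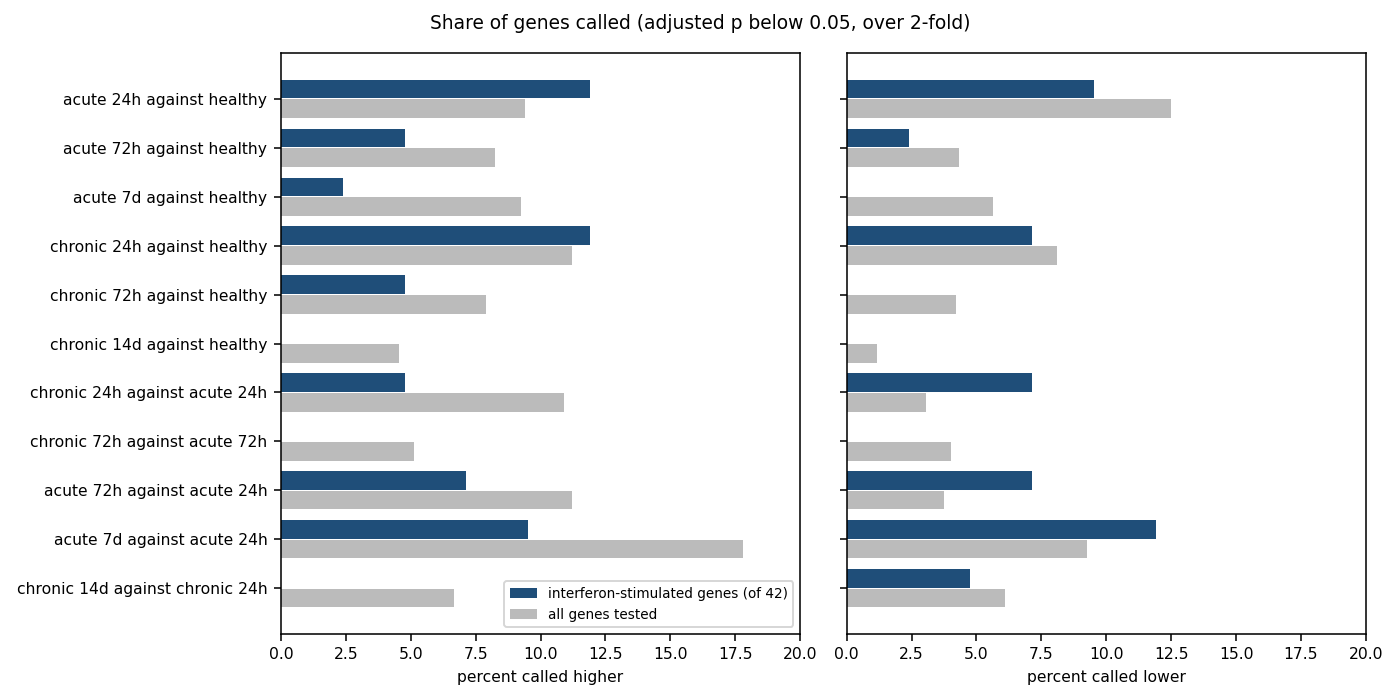
Percent of the 42 ISGs (blue) and of all 18758 genes tested (grey) that were called higher (left) or lower (right), one pair of bars per comparison, at an adjusted p below 0.05 and a change of over 2-fold. The blue bars stand for at most 5 genes each, and none is drawn for chronic 14 d against healthy or chronic against acute 72 h, where 0 were called.

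By the adjusted p alone, with no fold minimum, 8 ISGs were higher and 6 lower at acute 24 h (15.5% and 18.1% of all genes), 2 and 2 at acute 72 h (13.1% and 8.81%), and 1 and 4 at acute 7 d (13.1% and 10.6%). At chronic 24 h, 6 and 5 passed (17.1% and 14%), at chronic 72 h 3 and 1 (11% and 9%) and at chronic 14 d 0 and 1 (5.12% and 3.49%). The 4 that were lower at acute 7 d, each by less than 2-fold, were Ifih1, Cmpk2, Parp14 and Ifitm3. The libraries of a group lay apart from all healthy ones at acute 24 h for 10 ISGs that were higher and 12 that were lower (19.7% and 20.1% of all genes), at acute 72 h for 5 and 5 (14.2% and 9.37%), and at acute 7 d for 2 and 11 (14.4% and 10.3%). In the chronic groups the counts were 4 and 6 at 24 h (14.7% and 11.6%), 3 and 3 at 72 h (12% and 9.14%) and 0 and 6 at 14 d (6.94% and 6.39%).

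A test of any difference among the 7 groups called 17 of the 42 ISGs, against 56% of all genes tested. Against healthy cells, 15 ISGs were called at least once, 9 of them higher and 6 lower, and none in both directions. The remaining 27 were called in none of the 11 comparisons made: Ifit1, Ifit2, Ifit3, Oas1a, Oas2, Oasl2, Ddx58, Dhx58, Irf7, Irf9, Stat2, Rsad2, Mx2, Samd9l, Trim30a, Xaf1, Rtp4, Ifi35, Parp9, Parp14, Gbp2, Gbp3, Igtp, Irgm1, Iigp1, Ifi47 and Psmb8. The 6 comparisons against healthy cells share the same 4 control libraries.

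**Figure D2:**
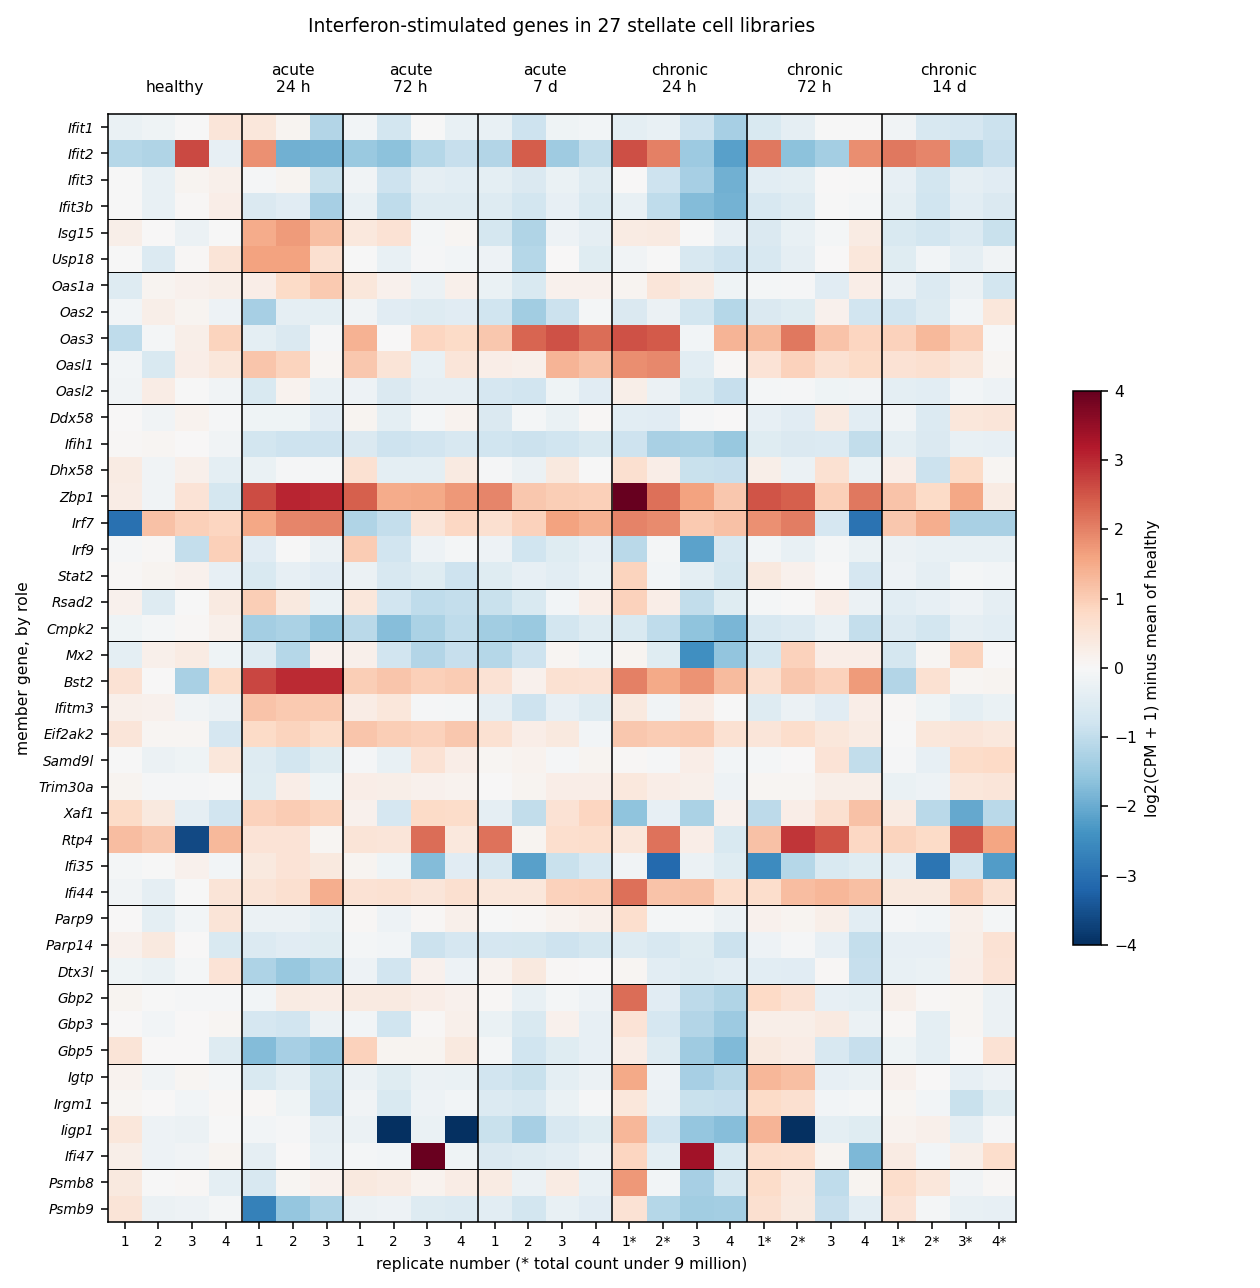
Each row is an ISG, grouped by role, and each column a library, with asterisks for totals under 9 M. Colour gives log2(CPM + 1) minus the mean of the 4 healthy libraries, drawn from -4 to 4 with values beyond shown at the end of the scale. Zbp1 and Bst2 are red in all 3 acute 24 h libraries, Cmpk2 is blue in the same 3, and the columns of chronic 24 h differ among themselves.

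Healthy HSCs already carried most ISG transcripts. Per kilobase of annotated exon, the most abundant in healthy cells was Ifitm3, an endosomal restriction factor for enveloped viruses, at a mean of 2257 CPM per kilobase. Ifit3 followed at 167, Isg15 at 147 and Iigp1 at 121 CPM per kilobase. At the other end stood Zbp1 at 1.61 and Oas3 at 0.321 CPM per kilobase, both among the genes that later rose.

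Of the ligands, interferon transcripts were scarce in all libraries. Of 21 interferon genes searched, only Ifng passed the filter, with counts in 16 of 27 libraries. Ifng was counted at 0, 0, 0.169 and 0 CPM in healthy cells, at 0.566, 0.8202, 0.08 and 1.23 CPM at acute 7 d and at 1.89, 0.921, 1.56 and 2.204 CPM at chronic 14 d. Ifng was not called by the 2-fold rule at acute 24 h or 72 h or at chronic 24 h. It was called higher at acute 7 d (adjusted p = 0.0351), chronic 72 h (adjusted p = 0.0394) and chronic 14 d (adjusted p = 0.0149). With almost no count in healthy cells, Ifng passed the filter only through injured or recovering groups where it was higher. Its calls are therefore not independent of the filter. A list of 6 T and NK cell markers summed to 3.99 to 5.17 CPM in healthy cells and to 32.7 to 59.1 CPM at chronic 14 d, a shift whose part in the Ifng values was not tested. Ifnz had counts in all 27 libraries but did not pass the filter, at 0.347 to 0.7801 CPM in healthy cells. The other 19 interferon genes, Ifnb1 and the alpha genes among them, gave no count in any library in 5 cases, and the rest had counts in at most 7 libraries and reached at most 0.975 CPM.

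Ifnar1, Ifnar2, Ifngr1, Ifngr2 and Il10rb had counts in all 27 libraries. Of 6 receptor genes, Ifngr2, the signal-passing chain of the interferon gamma receptor, rose at acute 24 h. It was counted at 48.3, 37.8, 46.5 and 38.9 CPM in healthy cells and at 99.9, 87.5 and 93.2 CPM at acute 24 h, without overlap (log2 fold change 1.12 ± 0.16 SE, adjusted p = 1.08e-05). Ifnlr1, the lambda receptor chain, was counted at 0, 0.3900, 0 and 0 CPM in healthy cells and at 1.35, 3.02, 1.67 and 2.16 CPM at chronic 24 h. It was called higher there (adjusted p = 0.00107) and at acute 72 h, chronic 72 h and chronic 14 d, from near-absent counts. Like Ifng, it passed the filter only through groups other than the healthy one. Ifngr1, the ligand-binding chain, ran at 13.9, 113, 86.00 and 118 CPM at acute 72 h and at 15.5, 154, 155 and 148 CPM at chronic 72 h, so that 1 library of each group lay far below its replicates.

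Among the interferon regulatory factors, Irf1 fell at acute 24 h. Irf1, an early target of interferon gamma, was counted at 1173, 1033, 860.1 and 847 CPM in healthy cells and at 163, 318 and 245 CPM at acute 24 h, with no overlap (log2 fold change -2.02 ± 0.30 SE, adjusted p = 1.52e-05). Irf1 also fell at acute 7 d (log2 fold change -1.42, adjusted p = 0.000357) and at chronic 24 h (log2 fold change -1.61, adjusted p = 5.41e-05). The ISGs Stat2 and Irf9, whose products stand in the ISRE-binding complex, were not called, with log2 fold changes at acute 24 h of -0.48 (adjusted p = 0.183) and -0.39 (adjusted p = 0.503). Irf9 overlaps Rnf31 on the same strand, so its counts are uncertain.

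Irf7, the factor that amplifies interferon alpha synthesis, took the most counts of the 3 transcription factors on the list. Irf7 was counted at 8.79, 174, 150.0 and 139.9 CPM in healthy cells, at 224, 299 and 309.8 CPM at acute 24 h, at 32.9, 39.05, 107 and 137 CPM at acute 72 h and at 119.7, 147, 234 and 208 CPM at acute 7 d. Irf7 stood in the chronic course at 307, 289, 159 and 174 CPM at 24 h, at 273, 317, 47.9 and 9.01 CPM at 72 h and at 162, 213, 30.8 and 30.4 CPM at 14 d. Its values spread over more than an order of magnitude inside the healthy and chronic 72 h groups, and it was not called in any comparison. The gene overlaps Phrf1 on the opposite strand, and whether the counting used strand is not given in the sources used here.

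Among the nucleic acid sensors, Zbp1, a sensor of Z-form nucleic acid that can start necroptosis, rose at 4 of the 6 times. Zbp1 was counted at 6.799, 4.78, 8.34 and 2.86 CPM in healthy cells, at 37.5, 51.9 and 48.7 CPM at acute 24 h, at 32.6, 16.9, 16.99 and 19.98 CPM at acute 72 h and at 23.6, 12.4, 11.4 and 11.3 CPM at acute 7 d. Zbp1 stood in the chronic course at 102, 28.3, 18.4 and 12.3 CPM at 24 h, at 35.1, 32.6, 11.2 and 26.5 CPM at 72 h and at 12.96, 9.74, 17.6 and 6.905 CPM at 14 d. All acute 24 h libraries stood above all healthy ones (log2 fold change 3.01 ± 0.56 SE, adjusted p = 0.000204). The groups were also apart, and the rise called, at acute 72 h (log2 fold change 1.92 ± 0.52 SE, adjusted p = 0.00973), at chronic 24 h (log2 fold change 2.81 ± 0.53 SE, adjusted p = 0.000296) and at chronic 72 h (log2 fold change 2.202 ± 0.52 SE, adjusted p = 0.0042). At acute 7 d and chronic 14 d the log2 fold changes were 1.36 (adjusted p = 0.0568) and 1.05 (adjusted p = 0.225), short of the threshold, although no acute 7 d library reached down to the healthy values. The chronic 24 h value leaned on replicate 1, and without it the log2 fold change was 1.78 with an adjusted p of 0.00194. Macrophage marker sums were 185, 210.4 and 139 CPM in the acute 24 h libraries, inside the healthy range, and 2984, 4119, 631 and 1274 CPM in the chronic 24 h libraries, and their part in the chronic value was not tested.

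Ifih1, which encodes the long RNA sensor MDA5, went the other way. Ifih1 was counted at 137, 140.4, 134 and 121 CPM in healthy cells, at 79.7, 74.4 and 73.6 CPM at acute 24 h, at 88.5, 74.2, 78.4 and 85.3 CPM at acute 72 h and at 76.6, 73.3, 76.8 and 85.8 CPM at acute 7 d. Ifih1 stood in the chronic course at 74.9, 53.1, 54.4 and 45.8 CPM at 24 h, at 94.1, 87.9, 90.3 and 66.4 CPM at 72 h and at 99.9, 89.3, 108 and 105 CPM at 14 d. Every healthy library lay above every library of the other 6 groups. Ifih1 fell at chronic 24 h (log2 fold change -1.22 ± 0.13 SE, adjusted p = 3.03e-07). At the other times the decrease was under 2-fold, at acute 24 h (log2 fold change -0.81, adjusted p = 0.000138), acute 72 h (-0.70, adjusted p = 0.000445), acute 7 d (-0.77, adjusted p = 0.000176) and chronic 72 h (-0.65, adjusted p = 0.00102). At chronic 14 d it was -0.40 and missed the threshold (adjusted p = 0.0581). Ddx58, which encodes the RNA sensor RIG-I, ran between 44.7 and 94.5 CPM and Dhx58, the regulator LGP2, between 8.08 and 28.3 CPM over the 27 libraries, and neither was called.

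Of the 12 sensing adaptors, 11 were tested. Tmem173, which encodes STING, the adaptor of cytosolic DNA sensing, was counted at 76.6, 80.3, 74.5 and 56.9 CPM in healthy cells and at 182, 206 and 186 CPM at acute 24 h. The rise was without overlap (log2 fold change 1.41 ± 0.18 SE, adjusted p = 2.64e-06), and at the other 5 times Tmem173 was not called. Tlr3, an endosomal RNA receptor, fell at acute 24 h (log2 fold change -1.06, adjusted p = 0.0148). Ikbke, a kinase of the interferon induction pathway, rose at the other 5 times, by between 1.02 at acute 72 h and 2.18 at chronic 24 h on the log2 scale.

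**Figure D3:**
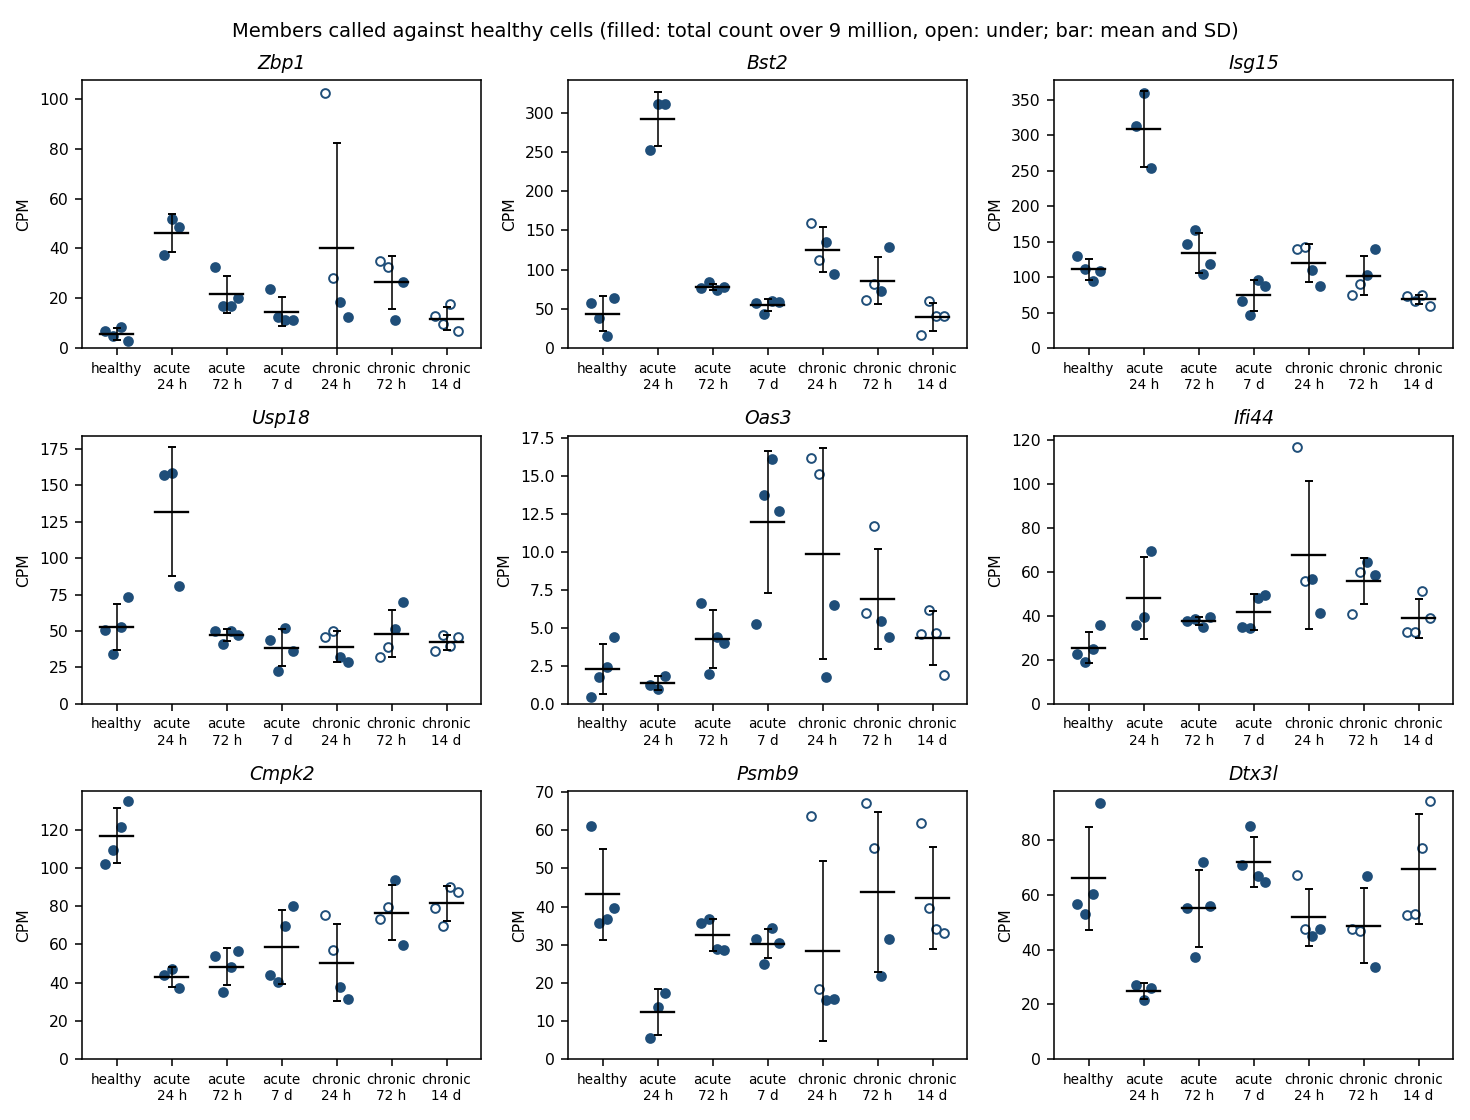
CPM of 9 ISGs in every library, by group, with filled points for totals over 9 M, open points for lower totals, and bars for the group mean and SD (bars that would pass below 0 stop at the axis). Bst2, Isg15 and Usp18 are highest in the 3 acute 24 h libraries, where Cmpk2, Psmb9 and Dtx3l lie below all 4 healthy ones.

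The ISG15 pair was called at acute 24 h and at no other time against healthy cells. Isg15 encodes a ubiquitin-like modifier and Usp18 the protease that removes it and that also blocks signalling at the type I receptor. Isg15 was counted at 130.0, 112, 94.3 and 109 CPM in healthy cells, at 313, 359.6 and 254 CPM at acute 24 h, at 147, 167, 104 and 118 CPM at acute 72 h and at 67.1, 47.00, 95.95 and 86.98 CPM at acute 7 d. Isg15 stood in the chronic course at 139, 143, 111 and 87.2 CPM at 24 h, at 74.4, 90.3, 104 and 139 CPM at 72 h and at 72.9, 66.8, 74.9 and 59.8 CPM at 14 d. The 3 acute 24 h libraries were the highest of all 27 (log2 fold change 1.47 ± 0.23 SE, adjusted p = 3.45e-05). Usp18 was counted at 50.4, 34.4, 52.7 and 73.1 CPM in healthy cells and at 157, 158 and 80.7 CPM at acute 24 h, apart from each other (log2 fold change 1.32 ± 0.29 SE, adjusted p = 0.0011). In the chronic 24 h cells both genes lay near the healthy level, Isg15 at a log2 fold change of 0.11 and Usp18 at -0.43 (adjusted p = 0.746 and 0.248). At chronic 14 d Isg15 lay below all healthy libraries, by less than 2-fold (log2 fold change -0.70, adjusted p = 0.0467). The direct test of chronic 24 h against acute 24 h gave lower values after the chronic course for Isg15 (log2 fold change -1.36 ± 0.23 SE, adjusted p = 0.000174) and for Usp18 (log2 fold change -1.75 ± 0.29 SE, adjusted p = 0.000149).

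Among the other antiviral effectors, Bst2 had the largest fold change. Bst2 encodes tetherin, which holds budding virions at the cell surface and is also a marker of plasmacytoid dendritic cells. Bst2 was counted at 57.8, 38.9, 14.9 and 64.04 CPM in healthy cells, at 252, 312 and 311 CPM at acute 24 h, at 76.97, 83.7, 74.7 and 78.4 CPM at acute 72 h and at 57.98, 43.3, 59.6 and 58.5 CPM at acute 7 d. Bst2 stood in the chronic course at 159.8, 113, 135 and 94.6 CPM at 24 h, at 60.8, 82.00, 73.4 and 128 CPM at 72 h and at 16.6, 59.9, 41.1 and 41.4 CPM at 14 d. The acute 24 h libraries lay above all others (log2 fold change 2.73 ± 0.37 SE, adjusted p = 6.00e-06). Siglech, a defining marker of plasmacytoid dendritic cells, was counted at 0, 0.585, 1.52 and 0 CPM in healthy cells and at 0.712, 1.48 and 0 CPM at acute 24 h. Of the other markers of that list, Ly6d, at 0, 0, 0 and 0 CPM in healthy cells and 0.267, 0.521 and 0.702 CPM at acute 24 h, was called higher there (adjusted p = 0.00943) and at the other 5 times. Without a healthy count, Ly6d passed the filter only through injured or recovering groups. Tcf4 was lower by less than 2-fold (log2 fold change -0.92, adjusted p = 0.00137), and Ccr9 was not called (log2 fold change -0.14, adjusted p = 0.918). Bst2 was also higher at chronic 24 h (log2 fold change 1.51 ± 0.34 SE, adjusted p = 0.00158), where Siglech ran from 5.22 to 7.45 CPM and Ly6d from 2.46 to 18.4 CPM. The part of such cells in the Bst2 values was not tested. The direct test found Bst2 lower at chronic than at acute 24 h (log2 fold change -1.22, adjusted p = 0.0174), a call that was lost without acute 24 h replicate 2 (adjusted p = 0.059) or replicate 3 (adjusted p = 0.0507).

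Ifitm3 started from the highest level of the list. Ifitm3 was counted at 1752, 1718, 1366 and 1286 CPM in healthy cells, at 3329, 3104 and 3159 CPM at acute 24 h, at 1854, 2068, 1477 and 1423 CPM at acute 72 h and at 1186, 856, 1216 and 1067 CPM at acute 7 d. Ifitm3 stood in the chronic course at 1989, 1383, 1879 and 1505 CPM at 24 h, at 1052, 1281, 1102 and 1815 CPM at 72 h and at 1549.6, 1339, 1155 and 1263 CPM at 14 d. All acute 24 h libraries lay above all healthy ones (log2 fold change 1.06 ± 0.19 SE, adjusted p = 0.000166). The rise was close to the 2-fold limit, and without healthy replicate 4 it was 0.99 on the log2 scale and no longer called.

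Eif2ak2, which encodes the kinase PKR that stops translation in infected cells, was called at acute 72 h. Eif2ak2 was counted at 17.4, 12.97, 13.1 and 7.37 CPM in healthy cells, at 21.2, 23.5 and 20.8 CPM at acute 24 h, at 27.6, 25.3, 23.8 and 26.9 CPM at acute 72 h and at 19.2, 14.8, 16.4 and 11.3 CPM at acute 7 d. Eif2ak2 stood in the chronic course at 26.8, 25.9, 25.96 and 19.3 CPM at 24 h, at 17.3, 20.3, 16.9 and 15.5 CPM at 72 h and at 12.2, 17.1, 17.6 and 16.7 CPM at 14 d. The acute 72 h and healthy libraries did not overlap (log2 fold change 1.03 ± 0.20 SE, adjusted p = 0.000577). The call was lost to the fold limit without healthy replicate 4 (log2 fold change 0.84) or acute 72 h replicate 1 (0.997). At acute 24 h and chronic 24 h the increases stayed under 2-fold, at 0.78 (adjusted p = 0.00565) and 0.95 (adjusted p = 0.000762) on the log2 scale.

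Ifi44, an interferon-induced cytoplasmic protein, was called at chronic 24 h and 72 h. Ifi44 was counted at 22.7, 19.02, 24.8 and 35.6 CPM in healthy cells, at 35.6, 39.4 and 69.4 CPM at acute 24 h, at 37.8, 38.5, 35.03 and 39.3 CPM at acute 72 h and at 34.8, 34.5, 48.1 and 49.5 CPM at acute 7 d. Ifi44 stood in the chronic course at 117, 55.9, 56.7 and 41.3 CPM at 24 h, at 40.7, 59.9, 64.3 and 58.6 CPM at 72 h and at 32.5, 32.8, 51.5 and 38.8 CPM at 14 d. The chronic 24 h libraries (log2 fold change 1.405 ± 0.28 SE, adjusted p = 0.000398) and the chronic 72 h libraries (log2 fold change 1.13 ± 0.27 SE, adjusted p = 0.00473) were apart from the healthy ones. With the higher-depth libraries alone the chronic 24 h value was 0.95 (adjusted p = 0.0146), under the fold limit. At acute 24 h its log2 fold change was 0.92 (adjusted p = 0.0169), under the fold limit, and the difference between chronic and acute 24 h was not called (log2 fold change 0.49, adjusted p = 0.254). Mx2, Samd9l, Trim30a, Xaf1, Rtp4 and Ifi35 were not called at any time.

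The OAS genes encode synthetases of oligoadenylates, which switch on RNase L, or relatives of them. Oasl2 took the most counts, and Oas3 and Oasl1 were called. Oasl2 was counted at 230.3, 314, 253 and 233 CPM in healthy cells, at 168, 283 and 207 CPM at acute 24 h, at 219.5, 170.4, 199 and 199.6 CPM at acute 72 h and at 159, 149, 228 and 187 CPM at acute 7 d. Oasl2 stood in the chronic course at 300.1, 218, 166 and 134 CPM at 24 h, at 244, 249, 225 and 231 CPM at 72 h and at 194, 192, 238 and 223 CPM at 14 d. The acute 72 h and acute 7 d libraries all lay below the healthy ones, with log2 fold changes of -0.39 (adjusted p = 0.175) and -0.51 (adjusted p = 0.0652), and Oasl2 was not called.

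Oas3 was counted at 0.453, 1.76, 2.44 and 4.42 CPM in healthy cells, at 1.25, 0.955 and 1.84 CPM at acute 24 h, at 6.64, 1.99, 4.39 and 4.03 CPM at acute 72 h and at 5.26, 13.8, 16.1 and 12.7 CPM at acute 7 d. Oas3 stood in the chronic course at 16.2, 15.1, 1.75 and 6.48 CPM at 24 h, at 5.999, 11.7, 5.45 and 4.39 CPM at 72 h and at 4.59, 6.18, 4.69 and 1.91 CPM at 14 d. Oas3 was low in healthy cells and was apart from them at acute 7 d (log2 fold change 2.39 ± 0.60 SE, adjusted p = 0.00555), the 1 ISG called at that time. At chronic 24 h it was called (log2 fold change 2.102 ± 0.60 SE, adjusted p = 0.00969) although the groups overlapped. The high chronic 24 h values were those of lower-depth replicates 1 and 2, and with the higher-depth libraries alone the log2 fold change was 0.87 (adjusted p = 0.354). The macrophage sums were highest at acute 7 d and, within chronic 24 h, in the same replicates 1 and 2, and their part in the Oas3 values was not tested.

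Oasl1 was called at chronic 24 h, at 10.7, 7.41, 14.2 and 16.5 CPM in healthy cells and 44.97, 47.4, 8.51 and 12.2 CPM at chronic 24 h. Replicates 1 and 2 were high and replicates 3 and 4 inside the healthy range (log2 fold change 1.202 ± 0.44 SE, adjusted p = 0.0387), and the call was lost when any of 5 libraries was left out, healthy replicates 1, 2 and 3 and chronic 24 h replicates 1 and 2, with log2 fold changes from 0.83 to 1.28. Oas1a ran between 37.9 and 131 CPM and Oas2 between 24.8 and 90.1 CPM over the 27 libraries. Oas1a was higher at acute 24 h by less than 2-fold (log2 fold change 0.71, adjusted p = 0.0222).

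The IFIT genes encode binders of foreign RNA ends. Ifit3 took the most counts of the 4. Ifit3 was counted at 286, 234, 312 and 331 CPM in healthy cells, at 281, 312 and 156 CPM at acute 24 h, at 262, 164, 223 and 217 CPM at acute 72 h and at 222, 191, 241 and 202 CPM at acute 7 d. Ifit3 stood in the chronic course at 292, 162, 113 and 76.00 CPM at 24 h, at 215, 220.2, 289 and 284 CPM at 72 h and at 230.2, 173, 223 and 209 CPM at 14 d. It was not called, its log2 fold change at chronic 24 h being -0.86 (adjusted p = 0.0213). Ifit3b was counted at 201, 166, 211 and 245 CPM in healthy cells, at 136, 148 and 79.9 CPM at acute 24 h, at 165, 101, 144 and 143 CPM at acute 72 h and at 142, 122, 162 and 133 CPM at acute 7 d. Ifit3b stood in the chronic course at 165, 101, 60.4 and 54.3 CPM at 24 h, at 130.1, 142, 202 and 194 CPM at 72 h and at 154, 116, 152 and 137 CPM at 14 d. Ifit3b fell at chronic 24 h (log2 fold change -1.12 ± 0.27 SE, adjusted p = 0.00261), where replicates 3 and 4 were the lowest of all 27 libraries. Its libraries lay below the healthy ones also at acute 24 h, 72 h and 7 d and at chronic 14 d, by less than 2-fold. Without replicate 3 of chronic 24 h the change was -0.95 and without replicate 4 it was -0.92 on the log2 scale, both under the fold limit. Ifit1, the founding member that binds cap-less RNA, ran between 64.3 and 226 CPM and was not called.

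Cmpk2 and Rsad2, neighbours on chromosome 12, encode a mitochondrial nucleotide kinase and viperin, an enzyme that makes a chain-terminating nucleotide. Cmpk2 fell at 3 of the 6 times. Cmpk2 was counted at 102, 109, 121 and 135 CPM in healthy cells, at 44.2, 47.3 and 37.5 CPM at acute 24 h, at 53.9, 35.1, 48.1 and 56.5 CPM at acute 72 h and at 44.1, 40.5, 69.7 and 80.2 CPM at acute 7 d. Cmpk2 stood in the chronic course at 75.5, 57.1, 37.5 and 31.7 CPM at 24 h, at 73.5, 79.6, 93.9 and 59.8 CPM at 72 h and at 78.9, 69.5, 89.8 and 87.4 CPM at 14 d. Every library of the 6 injured or recovering groups lay below every healthy one. The log2 fold changes at acute 24 h, acute 72 h and chronic 24 h were -1.44 (adjusted p = 0.000204), -1.27 (adjusted p = 0.000501) and -1.21 (adjusted p = 0.000454), and -0.99 (adjusted p = 0.0039) at acute 7 d, just under 2-fold. Its neighbour Rsad2 was not called and was counted at 29.2, 17.6, 25.5 and 33.4 CPM in healthy cells and 52.2, 34.1 and 21.1 CPM at acute 24 h. Rsad2 at acute 24 h overlapped the healthy values (log2 fold change 0.44, adjusted p = 0.439).

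At acute 24 h the other decreases were in genes of protein modification, GTPases and the immunoproteasome. Dtx3l, an E3 ligase that works with the ADP-ribosyltransferase Parp9, was counted at 56.6, 53.1, 60.4 and 93.6 CPM in healthy cells and at 26.98, 21.7 and 26.2 CPM at acute 24 h. The groups were apart (log2 fold change -1.402 ± 0.26 SE, adjusted p = 0.000218). Its partner Parp9, which overlaps it on the opposite strand, took the most counts of the 3 genes of this group. Parp9 was counted at 76.9, 58.1, 70.4 and 109.5 CPM in healthy cells, at 64.99, 65.5 and 58.7 CPM at acute 24 h, at 79.5, 66.3, 79.7 and 88.1 CPM at acute 72 h and at 75.1, 79.3, 83.96 and 87.8 CPM at acute 7 d. Parp9 stood in the chronic course at 123, 72.5, 72.4 and 65.4 CPM at 24 h, at 86.7, 83.4, 89.96 and 57.5 CPM at 72 h and at 74.00, 70.5, 88.4 and 73.3 CPM at 14 d. Parp9 was not called at acute 24 h (log2 fold change -0.32, adjusted p = 0.249), nor was Parp14, at -0.55 (adjusted p = 0.0976).

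The guanylate-binding proteins (GBPs) are large GTPases, induced mainly by interferon gamma, that attack the membranes of intracellular pathogens. Gbp5 fell at acute 24 h. Gbp5 was counted at 49.04, 34.1, 34.3 and 23.3 CPM in healthy cells, at 9.53, 13.02 and 11.1 CPM at acute 24 h, at 65.7, 37.1, 37.1 and 44.7 CPM at acute 72 h and at 32.2, 19.03, 23.9 and 26.9 CPM at acute 7 d. Gbp5 stood in the chronic course at 41.7, 23.7, 12.02 and 9.28 CPM at 24 h, at 44.8, 42.3, 21.6 and 17.5 CPM at 72 h and at 29.98, 25.9, 33.8 and 51.1 CPM at 14 d. The 3 acute 24 h libraries lay below the 4 healthy ones (log2 fold change -1.65 ± 0.42 SE, adjusted p = 0.00406). Gbp3 was counted at 131, 119, 129.5 and 136 CPM in healthy cells, at 79.9, 76.1 and 109 CPM at acute 24 h, at 120.1, 73.4, 132 and 147 CPM at acute 72 h and at 107, 83.9, 145 and 104 CPM at acute 7 d. Gbp3 stood in the chronic course at 189, 80.3, 57.3 and 46.1 CPM at 24 h, at 153, 150.4, 166 and 110.1 CPM at 72 h and at 134, 97.1, 136 and 109 CPM at 14 d. Gbp3 took the most counts of the 3 and was not called at acute 24 h (log2 fold change -0.55, adjusted p = 0.217). Gbp2 was at a log2 fold change of 0.18 (adjusted p = 0.831).

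Psmb9, a catalytic subunit that replaces a standard one in the immunoproteasome, fell at acute 24 h. Psmb9 was counted at 61.01, 35.6, 36.7 and 39.8 CPM in healthy cells, at 5.698, 13.8 and 17.5 CPM at acute 24 h, at 35.8, 36.8, 29.02 and 28.7 CPM at acute 72 h and at 31.5, 25.02, 34.3 and 30.4 CPM at acute 7 d. Psmb9 stood in the chronic course at 63.9, 18.4, 15.5 and 15.8 CPM at 24 h, at 67.1, 55.4, 21.7 and 31.4 CPM at 72 h and at 61.8, 39.7, 34.2 and 33.2 CPM at 14 d. The groups did not overlap (log2 fold change -1.81 ± 0.46 SE, adjusted p = 0.00396), and Psmb9 overlaps Tap1 on the opposite strand. Psmb8, another such subunit with more counts, was not called. Psmb8 was counted at 118, 87.7, 91.9 and 67.3 CPM in healthy cells, at 56.9, 94.3 and 101 CPM at acute 24 h, at 118, 112, 98.9 and 111 CPM at acute 72 h and at 112, 76.5, 111 and 73.2 CPM at acute 7 d. Psmb8 stood in the chronic course at 299.6, 83.05, 34.9 and 54.5 CPM at 24 h, at 148, 120.3, 43.6 and 97.4 CPM at 72 h and at 146, 124, 81.4 and 93.1 CPM at 14 d. At acute 24 h its log2 fold change was -0.12 (adjusted p = 0.89), with overlap.

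Markers of other cell types also differed at acute 24 h. A list of 10 hepatocyte markers summed to 146 to 378 CPM there and to 652 to 4089.8 CPM in healthy cells, with 9 of 10 called lower. Sums were also below every healthy library for the Kupffer cell list (55.8 to 69.9 against 72.7 to 335 CPM) and the B cell list (1.13 to 2.31 against 6.26 to 22.8 CPM, 2 of 5 lower), and 1 of 5 tested Kupffer cell markers, Marco, was higher. The macrophage and the T and NK sums overlapped or touched the healthy values, with 2 of 10 and 2 of 5 tested markers lower, among them Csf1r and Adgre1.

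Of 8 markers of sinusoidal endothelial cells, 5 were called lower at acute 24 h, Kdr, Ptprb, Clec4g, Fcgr2b and Pecam1, and Lyve1 higher, although the sums overlapped (191 to 253 against 184 to 598 CPM). Neutrophil markers rose, with 4 of 5 called higher (Cxcr2, Retnlg, S100a8 and S100a9) and sums of 3.77 to 18.4 CPM against 0.3900 to 2.18 CPM. With healthy sums that low, these neutrophil markers passed the filter only through injured or recovering groups. Their calls are therefore not independent of the filter. None of 6 monocyte markers was called. The part of all these cells in the 5 rises and 4 falls of ISGs at acute 24 h was not tested.

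The immunity-related GTPases (IRGs), which coat and break the vacuoles of parasites, were not called at any time. Iigp1 was counted at 954, 606, 583 and 676 CPM in healthy cells, at 640.5, 664 and 541 CPM at acute 24 h, at 587, 2.598, 572 and 4.49 CPM at acute 72 h and at 370.0, 273, 440.3 and 493 CPM at acute 7 d. Iigp1 stood in the chronic course at 1731, 407, 236 and 209.7 CPM at 24 h, at 1784, 2.57, 530.3 and 494 CPM at 72 h and at 754, 793, 539.9 and 672 CPM at 14 d. In 3 libraries Iigp1 was at or below 4.5 CPM, and in the other 24 at 209.7 CPM or more. Igtp was counted at 177, 148, 173 and 153 CPM in healthy cells and at 412, 371, 129.8 and 135 CPM at chronic 72 h, where the lower-depth pair was the higher. Igtp overlaps Irgm2 on the same strand and Ifi47 overlaps Olfr56, so their counts are uncertain.

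The 4 chronic 24 h libraries differed widely among themselves in ISGs. The median over the 42 ISGs of log2 CPM minus the healthy mean was 0.44, -0.17, -0.64 and -0.70 in replicates 1 to 4. Replicate 1 was the highest of its group for 29 ISGs and replicate 4 the lowest for 28. Both lower-depth libraries (replicates 1 and 2) lay above both higher-depth ones for 29 of the 42 ISGs, where 24.2% of all genes tested did so, and below for 1, where 24.5% did. At chronic 72 h, 14 ISGs were above (16.8% of all genes) and 8 below (19.5%).

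GTPases and immunoproteasome genes were among those with this spread. Gbp2 was counted at 313, 48.3, 31.6 and 28.2 CPM at chronic 24 h and at 70.6, 65.7, 64.4 and 63.5 CPM in healthy cells. Igtp at chronic 24 h ran at 461, 141, 64.1 and 74.1 CPM and Irgm1, a regulator of the IRGs, at 265, 162, 104 and 100.4 CPM (in healthy cells 176 to 202 CPM). Replicate 1 was above every healthy library in all 3 genes and replicates 2, 3 and 4, of both depths, were below every healthy library. With the higher-depth libraries alone, 2 ISGs rose at chronic 24 h and 12 fell, where 10.1% of all genes rose and 7.62% fell in the same fit. Those that fell included Gbp2 (log2 fold change -1.13), Gbp3 (-1.31), Gbp5 (-1.71), Igtp (-1.22), Psmb8 (-1.01) and Psmb9 (-1.46). Zbp1 and Bst2 were the 2 that rose, and Cmpk2, Ifih1 and Ifit3b fell in that fit as with all libraries. Leaving out replicate 1 by itself gave 8 lower calls in place of 3 (9.31% of all genes). The macrophage sums of replicates 1 to 4 were 2984, 4119, 631 and 1274 CPM and the T and NK sums 31.03, 14.3, 24.03 and 20.7 CPM, and their part, like that of depth, was not tested.

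**Figure D4:**
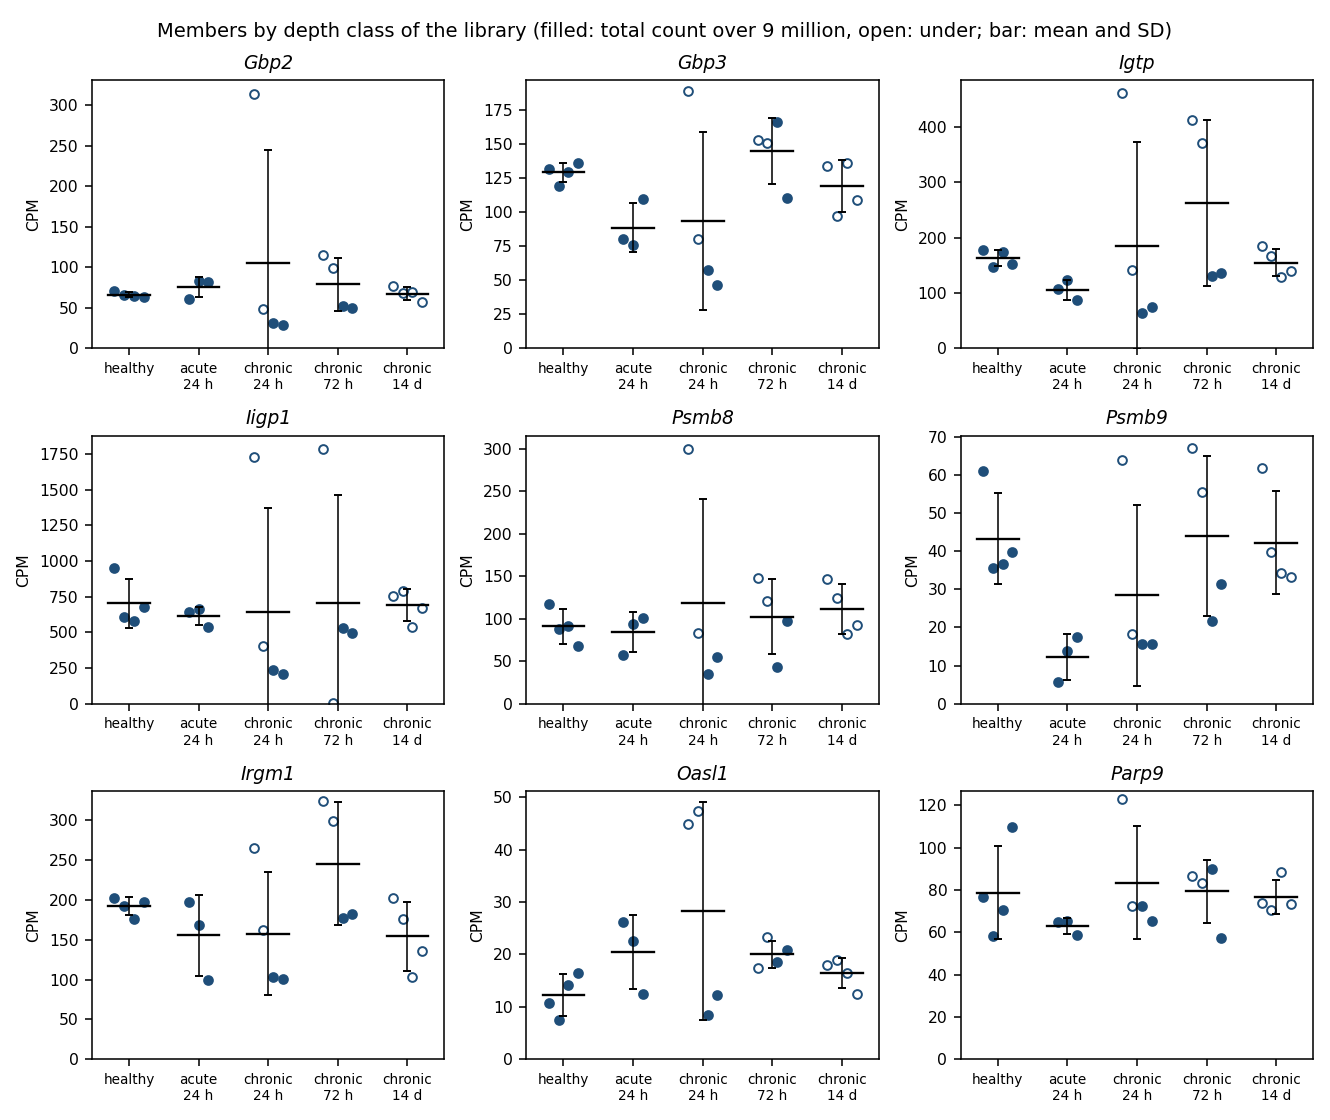
CPM of 9 ISGs in healthy, acute 24 h and the 3 chronic groups, with filled points for libraries over 9 M counts and open points for lower totals, and bars for the group mean and SD (bars that would pass below 0 stop at the axis). In chronic 24 h the open points lie above the filled ones for all 9 genes, with Gbp2 at 313 CPM in replicate 1 and 28.2 CPM in replicate 4.

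Some ISGs switched between high and low values among libraries of the same group. A step of over 3-fold between neighbouring libraries in rank order, reaching 20 CPM or more and parting libraries of a group, was found in 5 of the 42 ISGs and in 1.64% of all genes tested. These were Iigp1, Ifit2, Ifi47, Irf7 and Rtp4. Ifit2, a relative of Ifit3 linked to cell death, was at 12.0 CPM or less in 18 libraries and at 56.2 CPM or more in 9, and the high libraries came from 6 of the 7 groups. Ifi47 was at 5.93, 5.71, 111 and 5.42 CPM at acute 72 h and 12.3, 4.53, 73.7 and 3.76 CPM at chronic 24 h, with 1 high library in each. Rtp4, a Golgi chaperone of receptors, overlaps Masp1 on the opposite strand and Gm45338 on the same strand, so its counts are uncertain. It was at 90.5, 82.01, 2.19 and 94.5 CPM in healthy cells, with replicate 3 far below the rest. The cause was not tested.

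**Figure D5:**
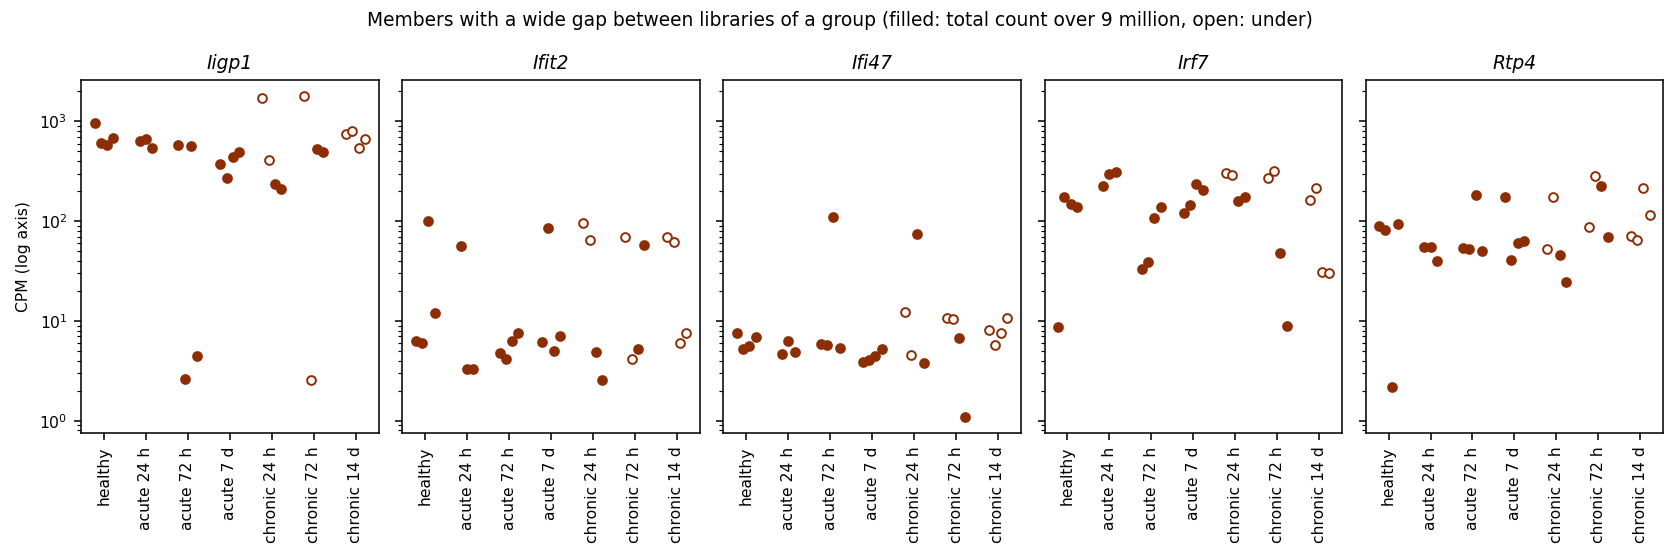
CPM on a log axis of the 5 ISGs with a wide gap between libraries of a group, by group, with filled points for totals over 9 M and open points for lower totals. Iigp1 is at or below 4.5 CPM in acute 72 h replicates 2 and 4 and in chronic 72 h replicate 2, and Ifit2 falls into a low set of 18 and a high set of 9 libraries.

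Of the 5 ISGs that rose at acute 24 h, 3 fell again by 72 h and all 5 by 7 d. They were picked on the same acute 24 h libraries, which favours a later fall in advance. The same holds for later rises of ISGs that fell at acute 24 h, so neither is independent support for a return. From acute 24 h to 72 h, 3 ISGs rose and 3 fell (background 11.2% and 3.76%). Those that fell were Bst2 (log2 fold change -1.89, adjusted p = 0.000488), Usp18 (-1.49, adjusted p = 0.000637) and Isg15 (-1.202, adjusted p = 0.00052). Those that rose were Gbp5 (2.04, adjusted p = 0.00122), Psmb9 (1.401, adjusted p = 0.0284) and Dtx3l (1.14, adjusted p = 0.00223). The Psmb9 call was lost without acute 24 h replicate 1 or 2 or acute 72 h replicate 1, 2 or 3, with adjusted p between 0.0501 and 0.157, and that of Dtx3l without acute 72 h replicate 3 (log2 fold change 0.92).

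From acute 24 h to 7 d, 4 rose and 5 fell (background 17.8% and 9.24%). Isg15 (log2 fold change -2.06 ± 0.23 SE, adjusted p = 5.54e-07), Bst2, Usp18, Zbp1 and Ifitm3 fell. Oas3 (log2 fold change 3.14 ± 0.70 SE, adjusted p = 0.00107), Dtx3l, Psmb9 and Gbp5 rose. The calls of Gbp5 and Psmb9 were lost when any of several libraries was left out, acute 24 h replicates 1 and 3 and acute 7 d replicate 1 for Gbp5 and acute 24 h replicates 1 and 2 and acute 7 d replicates 1 and 3 for Psmb9, leaving 2 higher calls at the least. These comparisons share the acute 24 h libraries with the comparison against healthy cells.

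The chronic and acute courses were compared at matched times. At 24 h, 2 ISGs were higher after the chronic course, Oas3 (log2 fold change 2.85 ± 0.70 SE, adjusted p = 0.00486) and Dtx3l (log2 fold change 1.05 ± 0.26 SE, adjusted p = 0.00488), and 3 were lower, Usp18, Isg15 and Bst2 (background 10.9% and 3.05%). By the adjusted p alone, 2 ISGs were higher and 5 lower (14% and 7.32% of all genes). The Dtx3l call was lost without acute 24 h replicate 2 (log2 fold change 0.96) or chronic 24 h replicate 1 (0.90). With the higher-depth libraries alone neither was called, Oas3 at 1.58 (adjusted p = 0.154) and Dtx3l at 0.86 (adjusted p = 0.0638) on the log2 scale. Without chronic 24 h replicate 1 the lower calls numbered 7 in place of 3 (3.31% of all genes). At 72 h, 0 ISGs were called higher or lower by edgeR and by DESeq2 (background 5.11% and 4.01%), with 5 higher and 3 lower at an unadjusted p under 0.05 in edgeR. From chronic 24 h to 14 d, 0 rose by edgeR, with 4 higher at an unadjusted p under 0.05, 0 called higher by DESeq2, and Bst2 and Zbp1 fell (background 6.65% and 6.11%). By the adjusted p alone, 3 were higher and 6 lower (10.1% and 12.9% of all genes). The log2 fold change of Bst2 was -1.66 (adjusted p = 0.00123) and that of Zbp1 -1.76 (adjusted p = 0.0152), the latter lost without chronic 24 h replicate 1 (log2 fold change -0.73) or chronic 14 d replicate 2 (adjusted p = 0.0501) or 4 (adjusted p = 0.0597). Without chronic 24 h replicate 1, 3 ISGs rose over that interval (7.56% of all genes).

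A list of 50 further ISGs, all tested, was read in the same way. At acute 24 h, 2 rose and 9 fell, beside 9.41% and 12.5% of all genes tested. The falls were in Gbp4, Gbp6, Gbp7, Irgm2, Cxcl10, Ifi203, Ifi44l, Trim14 and Znfx1. Gbp4 was counted at 307, 243, 297 and 355 CPM in healthy cells and at 48.1, 51.99 and 69.9 CPM at acute 24 h (log2 fold change -2.41 ± 0.65 SE, adjusted p = 0.00572). Cxcl10, a chemokine for T cells, was at 233, 119, 94.3 and 228 CPM in healthy cells and at 50.2, 64.2 and 25.7 CPM at acute 24 h (log2 fold change -1.85 ± 0.49 SE, adjusted p = 0.00489). Both genes are induced by interferon gamma in many cells, and in both the acute 24 h libraries lay below all healthy ones.

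Slfn2, a schlafen that restrains proliferation of immune cells, was called higher at all 6 times. It was counted at 8.79, 10.04, 9.44 and 6.85 CPM in healthy cells, at 32.6, 37.6 and 21.9 CPM at acute 24 h and at 111, 143, 55.6 and 48.6 CPM at chronic 24 h. Its log2 fold change ran from 1.54 at acute 72 h to 3.35 at chronic 24 h, and no injured library reached down to the healthy values. The macrophage sums of the 4 chronic 24 h libraries were 2984, 4119, 631 and 1274 CPM, also highest in replicates 1 and 2, and those at acute 24 h lay inside the healthy range. Their part in the Slfn2 values was not tested. Over the same list, 3 rose and 3 fell at acute 72 h (8.23% and 4.33%), 2 and 5 at acute 7 d (9.23% and 5.64%) and 4 and 5 at chronic 24 h (11.2% and 8.11%), with the shares over all genes in parentheses. At chronic 72 h the counts were 3 and 1 (7.88% and 4.2%) and at chronic 14 d 2 and 0 (4.55% and 1.17%).

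Of 10 class I antigen presentation genes, 2 fell at acute 24 h, where 12.5% of all genes tested fell. At acute 72 h 1 of the 10 fell (4.33% of all genes), and the median log2 fold change of the list was -0.72. At acute 24 h Nlrc5, the transactivator of the class I genes, was at a log2 fold change of -1.64 (adjusted p = 0.0312). Psmb10, the third immunoproteasome subunit, was at -1.16 (adjusted p = 0.0116). Psmb10 also fell at acute 7 d (-1.05, adjusted p = 0.0176) and chronic 24 h (-1.12, adjusted p = 0.00901). Of 8 negative regulators, 7 were tested. At acute 24 h 1 rose and 0 fell (9.41% and 12.5% of all genes), and at acute 72 h 0 rose and 1 fell (8.23% and 4.33%). At acute 7 d 1 rose and 1 fell (9.23% and 5.64%), and at chronic 24 h 1 rose and 2 fell (11.2% and 8.11%). At chronic 72 h 1 rose and 0 fell (7.88% and 4.2%), and at chronic 14 d 0 were called (4.55% and 1.17%). Ptpn2, a phosphatase of JAK1, rose at acute 24 h (log2 fold change 1.46, adjusted p = 0.000134). Socs1, the JAK inhibitor induced by interferon, fell at acute 72 h (-1.002, adjusted p = 0.0141), acute 7 d (-1.01, adjusted p = 0.0125) and chronic 24 h (-1.45, adjusted p = 0.000538). Of 5 IRFs outside the 42, Irf5, a macrophage and B cell factor, rose at acute 7 d, chronic 24 h, chronic 72 h and chronic 14 d, where the macrophage sums were also higher than in healthy cells, and their part was not tested.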

How the data were processed

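RNA of UV-sorted HSCs from 27 mouse samples in 7 groups was sequenced by the authors as single-end reads of 75 bases, aligned to GRCm38 with STAR and assembled with StringTie, per the submitters' processing notes and the study's methods. Their versions, the annotation, the use of strand and the step from assembly to counts are not given in the sources used here. The authors deposited raw counts per gene for 53379 Ensembl genes, of which 16198 had no count. Symbols and positions came from GENCODE M21 (53274 IDs matched and 105 did not).

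Groups came from the labels. Counts were fitted with edgeR 4.0.16 (R 4.3.3, limma 3.58.1) over all 27 libraries, with TMM scaling, filterByExpr (18758 genes tested), a robust quasi-likelihood fit and Benjamini-Hochberg adjustment, after a check on simulated data. A call needed an adjusted p below 0.05 and a change of over 2-fold. CPM were scaled by TMM, and values per kilobase used annotated exon length. Library totals of 6.31 M to 13.05 M counts limit the precision of genes near 1 CPM, and p-values measure the spread between these samples.

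The genes, lists and tests were chosen with earlier results of these data known. Library values were given for the gene of highest mean CPM in each role, and for up to 3 called genes at each end of the fold changes per comparison with healthy cells. Alternatives were DESeq2 1.42.0 (test or size factors), library size alone, no filter, no fold minimum, a replicate block, depth class as a term and leaving out each library. The fit on higher-depth libraries alone was chosen after seeing the data. Shared replicate numbers were not taken as pairs in the main fit. Promoter windows came from RefSeq (GRCm38.p6). No sequence of a protein was used here.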

Additional observations from a re-analysis of the deposited data

Results flagged for a closer look

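In 114 groups of 4 libraries (19 ISGs in 6 groups), 8 had a library set apart from the other 3 by Dixon's criterion (the gap to the nearest library over the range of the group, at its 95% critical value), where chance gives about 1 in 20 groups. At chronic 24 h, replicate 1 stood above the rest for Parp9 (123.2 CPM), Iigp1 (1731.0 CPM) and Psmb9 (63.85 CPM), and replicate 4 stood below for Eif2ak2 (19.28 CPM). Healthy replicate 1 was high for Psmb9 (61.01 CPM), which is in the control group of the Psmb9 decrease at acute 24 h. At acute 7 d, replicate 1 stood apart for Zbp1 (23.61 CPM) and replicate 2 for Bst2 (43.31 CPM), and at chronic 14 d replicate 1 stood low for Eif2ak2 (12.15 CPM).

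The responses at 24 h to the chronic and to the acute course differed by the direct edgeR test for 5 ISGs. Of all genes tested, 10.9% were called higher and 3.05% lower in that comparison. Bst2 (log2 fold change -1.22, adjusted p = 0.0174), Isg15 (log2 fold change -1.36, adjusted p = 0.000174) and Usp18 (log2 fold change -1.75, adjusted p = 0.000149) were lower after the chronic course. Dtx3l (log2 fold change 1.05, adjusted p = 0.00488) and Oas3 (log2 fold change 2.85, adjusted p = 0.00486) were higher. The calls of Bst2 and Dtx3l were lost when certain single libraries were left out. With the higher-depth libraries alone, Dtx3l and Oas3 were not called.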

How the results depend on the processing

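All 45 called values of single ISGs kept their direction and call under library size alone, and 301 of 331 did when a library was left out, the other 30 losing the call in the same direction. With no fold minimum, 8 ISGs were higher at acute 24 h and the lower calls became 2 at acute 72 h, 4 at acute 7 d, 5 at chronic 24 h, 1 at chronic 72 h, 1 at chronic 14 d and 5 for chronic against acute 24 h, with 3 higher and 6 lower from chronic 24 h to 14 d. DESeq2's size factors gave 1 higher call at acute 72 h (7.7% of all genes). Library size alone gave 2 higher at acute 7 d and 4 at chronic 72 h. Over all genes the median log2 fold change went from -0.03 to 0.15 at chronic 14 d against healthy cells with that scaling, with 91.2% of calls higher in place of 79.6%, and from chronic 24 h to 14 d with 67.2% in place of 52.1%. Without the filter, 1 ISG was higher for chronic against acute 24 h (4.49% of all genes). DESeq2's test gave 2 higher at acute 7 d (10.1% of all genes) and 5 from acute 24 h to 72 h (12.5%). Deviations of same-numbered libraries from their group means correlated at -0.172 to 0.172 over 40 pairs, and 16 of these were the best for their number. With the replicate block, 2 ISGs were higher and 1 lower at acute 7 d (9.11% and 5.59% of all genes). The chronic 24 h call of Oasl1 was lost with it (log2 fold change 1.08, adjusted p = 0.0834 in edgeR).

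With depth class as a term, 2 ISGs were higher at acute 7 d (9.35% of all genes). At chronic 24 h, 3 were higher and 9 lower in that fit (11.3% and 9.48%), and at chronic 14 d 5 were lower (1.71%). As every chronic 14 d library was of lower depth, these 5 calls carry over the depth difference inside chronic 24 h and 72 h. For chronic against acute 24 h 1 was higher (9.65%), and for chronic against acute 72 h 1 was lower (3.14%). The sign turned for Igtp at chronic 24 h (-1.09) and Gbp2 at chronic 14 d (-1.80). With higher-depth libraries alone, 2 were higher at acute 7 d (8.72% of all genes). At chronic 24 h, 2 were higher and 12 lower (10.1% and 7.62%). For chronic against acute 24 h, 0 were higher and 8 lower by edgeR (7.32% and 2.93%), and at 72 h 1 was lower (2.16%). The sign at chronic 24 h then turned for Oasl1 (-0.22), Gbp2 (-1.13), Igtp (-1.22) and Psmb8 (-1.01). The cause was not tested. Leaving out 1 library at a time, higher calls against healthy cells ran from 5 to 6 at acute 24 h, 2 to 3 at acute 72 h, 1 to 1 at acute 7 d, 4 to 6 at chronic 24 h, 2 to 4 at chronic 72 h and 0 to 0 at chronic 14 d, and lower calls from 4 to 4, 1 to 1, 0 to 2, 2 to 8, 0 to 0 and 0 to 0. Higher calls ran from 1 to 3 for chronic against acute 24 h, 1 to 3 from acute 24 h to 72 h, 2 to 4 from acute 24 h to 7 d and 0 to 3 from chronic 24 h to 14 d, and lower calls from 2 to 7, 3 to 4, 5 to 6 and 1 to 2.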
